A study of Mus musculus with 35 samples.

Results

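The respiratory chain genes are those whose symbol begins with mt- or follows the naming of the subunits of complexes I to V (Nduf, Sdh, Uqcr, Cox4 to Cox8 and Atp5 symbols). This rule found 123 of the 19573 genes in the table: 37 genes of the mitochondrial genome and 86 nuclear genes. The mitochondrial genes were 13 mRNAs (7 for complex I, 1 for complex III, 3 for complex IV and 2 for complex V), 2 rRNAs and 22 tRNAs. The nuclear genes were 79 subunits (37 for complex I, 4 for complex II, 8 for complex III, 15 for complex IV and 15 for complex V), 5 pseudogenes, and Atp5s and Atp5sl, which carry an Atp5 symbol without being subunits. The rule goes by symbol, so subunits with other symbols, such as Cyc1 of complex III and Ndufab1 of complex I, are not among these genes. All 123 passed the filter on low values, an FPKM of at least 1 in 3 or more libraries.

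Bulk RNA-seq was made from cortical astrocytes that were isolated by FACS out of Aldh1l1egfp mice aged P30 to P35, in which eGFP is driven by the regulatory region of Aldh1l1, an astrocyte gene. Mice received lipopolysaccharide (LPS, a bacterial cell wall component that activates innate immunity) at 5 mg/kg, or saline. The 35 libraries were 5 of females 3 h after LPS and 4 of females 3 h after saline, 4 of females 24 h after LPS and 5 of females 24 h after saline, 5 of males 24 h after LPS and 5 of males 24 h after saline, and 3 of females 72 h after LPS and 4 of females 72 h after saline. All groups carried the same transgene, so the cells studied are those in which it is active, and the sorting gate is not given in the sources used here.

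The respiratory chain passes electrons from NADH and succinate through complexes I to IV to oxygen and stores the energy as a proton gradient, which complex V uses to make ATP. Complexes I, III, IV and V are built from subunits of both genomes, whereas all subunits of complex II are nuclear. The mitochondrial genes are transcribed as long polycistronic RNAs from each strand, from which the tRNAs are cut out to release the mRNAs and rRNAs, while each nuclear subunit has a promoter of its own.

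A pair of mitochondrial tRNA genes is shown because they were among the 5 genes that passed the test below and because both abut the mRNAs that are discussed with them. Capitals mark bases shared with a neighbouring gene. The isoleucine tRNA mt-Ti (GRCm38, chrM:3706-3774, plus strand, 69 bases) begins inside the end of mt-Nd1 and ends opposite mt-Tq, and the serine tRNA mt-Ts1 (chrM:6870-6938, minus strand, 69 bases) overlaps the end of mt-Co1 on the other strand by 3 bases.
mt-Ti: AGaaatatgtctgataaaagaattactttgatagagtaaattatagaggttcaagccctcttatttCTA
mt-Ts1: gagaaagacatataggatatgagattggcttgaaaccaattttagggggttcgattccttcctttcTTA

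The coding sequences of Cox8a and Cox7b, nuclear subunits of complex IV, are shown because they lie toward opposite ends of the range of base composition discussed below. G and C are in capitals. Cox8a (GRCm38, exons within chr19:7215389-7217512, minus strand) has 136 G or C among 210 coding bases, and Cox7b (exons within chrX:106015831-106021823, plus strand) has 115 among 243.
Cox8a: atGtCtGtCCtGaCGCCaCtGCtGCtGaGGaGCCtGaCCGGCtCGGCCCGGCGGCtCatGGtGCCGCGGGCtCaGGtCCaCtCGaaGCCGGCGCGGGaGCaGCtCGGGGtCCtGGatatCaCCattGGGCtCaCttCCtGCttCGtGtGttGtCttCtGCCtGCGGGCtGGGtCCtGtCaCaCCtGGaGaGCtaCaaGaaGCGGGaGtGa
Cox7b: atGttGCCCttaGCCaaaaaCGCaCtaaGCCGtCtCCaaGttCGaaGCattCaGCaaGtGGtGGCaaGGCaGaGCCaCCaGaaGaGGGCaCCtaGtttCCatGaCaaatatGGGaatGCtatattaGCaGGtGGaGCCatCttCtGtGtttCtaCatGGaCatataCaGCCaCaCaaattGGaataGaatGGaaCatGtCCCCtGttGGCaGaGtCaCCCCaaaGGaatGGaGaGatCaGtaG

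The deposited values are FPKM, fragments scaled to transcript length and to all mapped fragments, so levels are given per length. Whether tRNAs, rRNAs and mRNAs were captured alike in the amplified RNA was not tested, so levels across these classes may not be comparable. FPKM summed to between 456417 and 565592 per library, and 14508 to 16942 genes reached an FPKM of 1. The read depth is unknown. Astrocyte markers (8 of 8 listed genes, summed 3981 to 8857 FPKM) stood far above those of microglia (44.6 to 669), neurons (69.5 to 280) and mural cells (18.0 to 65.9), none of which was at 0 throughout. Oligodendrocyte markers summed to 201 to 2167 FPKM and erythroid markers to 49.9 to 1787, with both highest erythroid sums in female saline 72 h replicates 3 and 4. The number format of the deposited values split the libraries: 11 libraries at 24 h (female LPS replicates 1 to 3, female saline 1 to 3, male LPS 1 and 2, male saline 1 to 3) were written in single precision and the other 24 in double precision. The labels do not say whether libraries came from separate animals, so p-values measure the spread between these libraries, and in bulk RNA fewer cells of a type and less RNA per cell cannot be told apart.

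Some libraries stood apart in their mitochondrial RNA before any comparison. The ratio of mt-Rnr2, the large mitochondrial rRNA, to mt-Rnr1, the small one, was 1.97 and 3.65 in female LPS 3 h replicates 4 and 5, 3.00 and 2.74 in male LPS 24 h replicates 4 and 5, and 4.49 in female LPS 72 h replicate 1. All other libraries lay between 6.66 and 14.7. Male LPS 24 h replicates 2 and 3 had 47.8 and 54.4 FPKM of Lcn2, a secreted protein that reactive astrocytes make in quantity, against 314, 646 and 700 FPKM in male LPS 24 h replicates 1, 4 and 5.

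Messenger RNAs of the mitochondrial genome far outweighed those of the nuclear subunits. The 13 mitochondrial mRNAs took 3.83% to 18.7% of all FPKM and the 79 nuclear subunits 1.15% to 2.46%. The summed FPKM of the mitochondrial mRNAs was 1.94 to 15.4 times that of the nuclear subunits (median 7.96 over 35 libraries). Within a complex, this ratio ran from 1.49 to 12.8 for complex I, 2.33 to 16.2 for complex III, 4.29 to 46.5 for complex IV and 0.626 to 7.59 for complex V. Between libraries the mitochondrial sum varied 5.84-fold, from 17748 to 103727 FPKM, and the nuclear sum 1.87-fold, from 6295 to 11765 FPKM. The spread between libraries of a group, taken on the median log2 value of each class, was 0.79 (pooled SD) for mitochondrial mRNAs and 0.27 for nuclear subunits.

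Among the mitochondrial mRNAs, mt-Co3 and mt-Co1, core subunits of cytochrome c oxidase (complex IV), averaged 13712 and 9072 FPKM over the 35 libraries. Cytochrome b (mt-Cytb, complex III) averaged 7587 FPKM and mt-Nd1 (complex I) 6781 FPKM, whereas mt-Nd3 (complex I) averaged 475 FPKM. The highest nuclear subunit of each complex reached a small part of this: Atp5b, the catalytic beta subunit of ATP synthase, averaged 362 FPKM, Cox8a 268 FPKM, Uqcrb of complex III 267 FPKM, Ndufc2 of complex I 237 FPKM and Sdhb, the iron-sulfur subunit of succinate dehydrogenase, 139 FPKM. mt-Ts1 averaged 9878 FPKM, but a tRNA of this size holds few fragment positions and its level is the least certain of these.

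**Figure D1:**
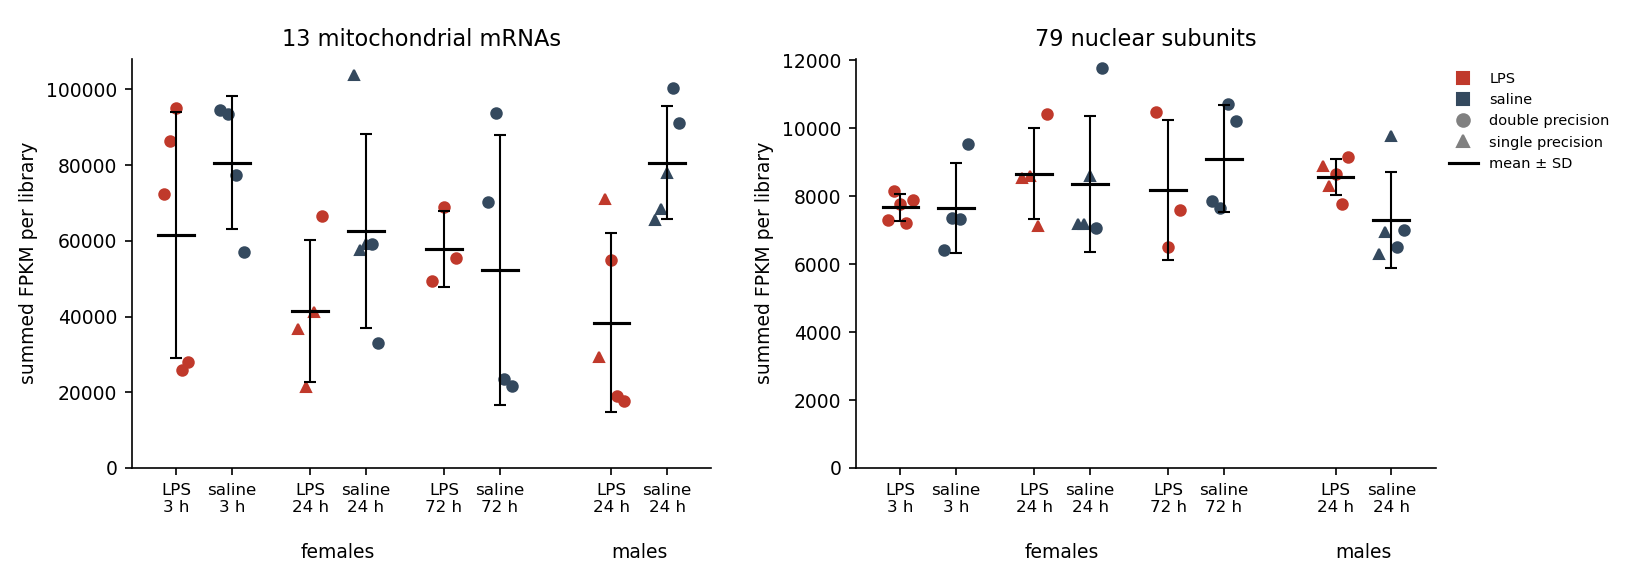
Summed FPKM of the 13 mitochondrial mRNAs and of the 79 nuclear subunits in each library, in 8 groups with LPS left of saline; circles are libraries in double precision, triangles in single precision, and bars are mean ± SD. The mitochondrial sums of males at 24 h averaged 38416 FPKM after LPS and 80663 FPKM after saline, while the nuclear sums of all groups lay between 6295 and 11765 FPKM.

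LPS was set against saline at each time, and the mitochondrial and nuclear genes were compared within each comparison. Mitochondrial mRNAs lay below saline at 3 h and at 24 h in both sexes and above it at 72 h, but genes passed the test only in males at 24 h, where 4 mitochondrial genes fell and 1 nuclear gene rose. The median log2 fold change of the 13 mitochondrial mRNAs was -0.55 in females at 3 h, -0.65 in females at 24 h, -1.31 in males at 24 h and 0.31 in females at 72 h. For the 79 nuclear subunits it was 0.08, 0.10, 0.40 and -0.18 in the same order, beside 0.02, 0.05, 0.18 and -0.10 for all genes tested. In the limma fit of all libraries, each of the 13 mitochondrial mRNAs lay below 0 at 3 h and in both sexes at 24 h. Each lay above 0 at 72 h in that fit. Some of these signs turned under other settings. In the authors' deposited table mt-Nd2, mt-Nd3 and mt-Nd6 lay below 0 at 72 h, and the median of the 13 was 0.02. Under quantile normalization mt-Cytb (0.06) and mt-Nd1 (0.04) lay above 0 at 3 h and mt-Co1 (-0.02) and mt-Cytb (-0.11) below 0 at 72 h. At 72 h, 7 of the 13 lay below 0 without saline replicate 3 or 4 or with a replicate block, with mt-Nd4l lowest at -0.15, and mt-Nd4l also did so without LPS replicate 2 or 3. In females at 24 h all 13 lay above 0 within double-precision libraries, of which there were 1 after LPS and 2 after saline. No sign turned with 1 library left out at 3 h or at 24 h in either sex. With the trend on G and C content removed, the nuclear medians at 3 h and in females at 24 h were -0.02 and -0.07. The mitochondrial mRNAs come from shared precursors and are not independent of each other.

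**Figure D2:**
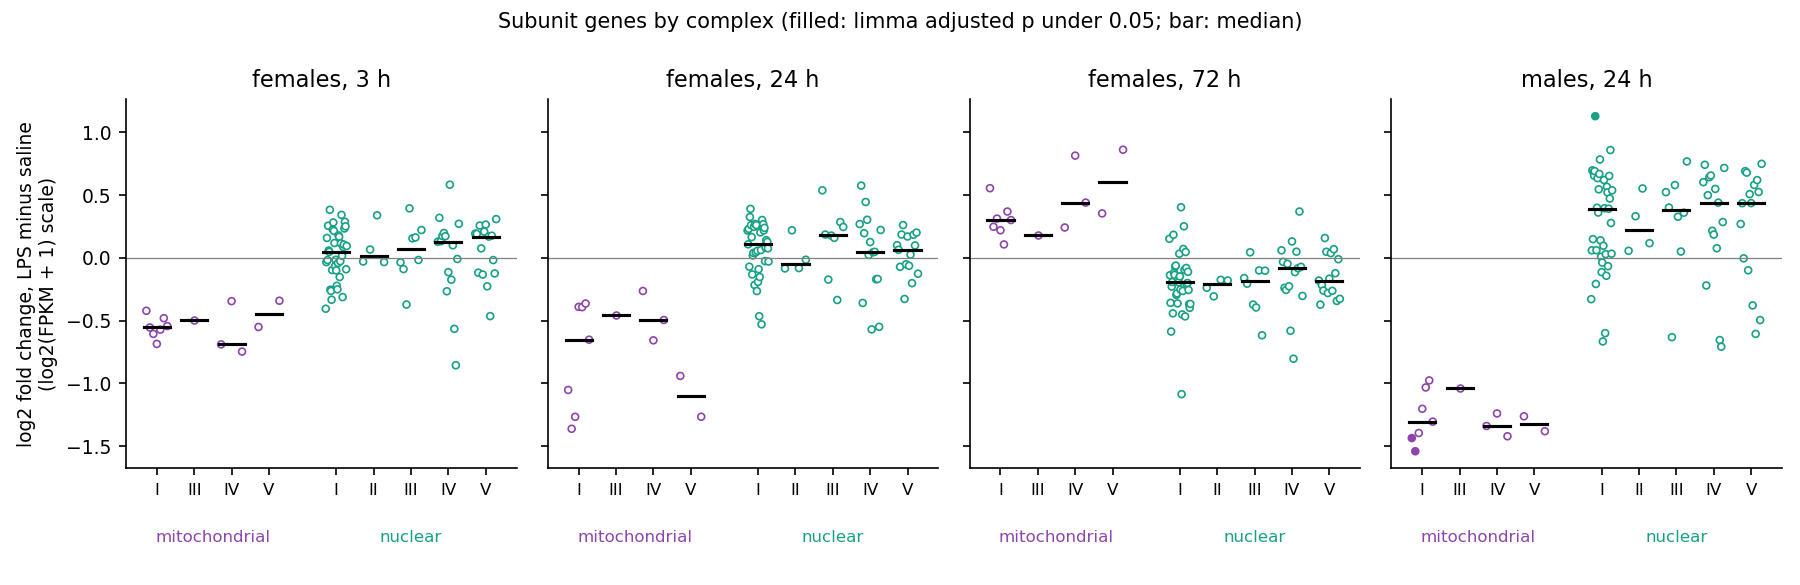
Log2 fold change of LPS against saline for every subunit by complex, mitochondrial beside nuclear, in 4 comparisons; filled points had an adjusted p under 0.05 and bars are medians. In males at 24 h the mitochondrial medians were -1.31, -1.03, -1.34 and -1.32 for complexes I, III, IV and V.

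In each complex with mitochondrial subunits, their median lay below the nuclear one at 3 h and at 24 h in all libraries as deposited. In males at 24 h after LPS the mitochondrial medians were -1.31 for complex I, -1.03 for mt-Cytb of complex III, -1.34 for complex IV and -1.32 for complex V on the log2 scale. The nuclear medians there were 0.39, 0.38, 0.44 and 0.44 for the same complexes and 0.22 for complex II. In females at 24 h the mitochondrial medians were -0.65, -0.46, -0.50 and -1.10 for complexes I, III, IV and V, against nuclear medians of 0.11, 0.18, 0.05 and 0.07. At 3 h they were -0.55, -0.49, -0.69 and -0.45, against 0.05, 0.07, 0.13 and 0.17. At 72 h the signs were the other way round in the limma fit of all libraries. Mitochondrial medians were 0.30, 0.18, 0.44 and 0.61 and nuclear medians -0.19, -0.18, -0.08 and -0.18. In the authors' deposited table these mitochondrial medians were 0.001, 0.02, 0.07 and 0.14, and the nuclear ones -0.04, -0.03, 0.02 and -0.06. Without saline replicate 3 or 4 the mitochondrial values of complexes I and III at 72 h lay below 0. Several nuclear medians near 0 turned sign under other scalings, those of complexes I, II and III at 3 h, IV and V in females at 24 h and II in males, and so did mt-Cytb as above. All these are descriptions of lists, and no test was made of a difference between the genomes.

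In males at 24 h the mitochondrial mRNAs summed to 29434, 70938, 55016, 18943 and 17748 FPKM in the 5 LPS libraries and to 65579, 68303, 77907, 100262 and 91264 FPKM in the 5 saline libraries. LPS replicates 1, 3, 4 and 5 lay below every saline library and LPS replicate 2 lay within the saline range. The nuclear subunits summed to 8889, 8305, 8644, 7788 and 9149 FPKM after LPS and to 6295, 6952, 9788, 6498 and 7009 FPKM after saline. Apart from saline replicate 3, which was the highest of the 10, every saline sum lay below every LPS sum. The mitochondrial to nuclear ratio averaged 4.52 ± 2.83 after LPS and 11.3 ± 2.92 after saline (SD, n = 5 each).

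mt-Nd1 and mt-Nd2, core membrane subunits of complex I, fell in males at 24 h. mt-Nd1 measured 1397, 8323, 6091, 2419 and 2088 FPKM after LPS and 6903, 7368, 9267, 12426 and 8889 FPKM after saline. Its log2 fold change was -1.44 (SE 0.46, limma, Benjamini-Hochberg adjusted p = 0.046), with 4 of 5 LPS libraries below the saline range and LPS replicate 2 inside it. mt-Nd2 measured 775, 4516, 2797, 912 and 741 FPKM after LPS and 3318, 3557, 4855, 6317 and 3837 FPKM after saline. It too had 4 of 5 LPS libraries below every saline library, with a log2 fold change of -1.54 (SE 0.50, limma adjusted p = 0.047). Within single-precision libraries the changes were -1.19 for mt-Nd1 and -1.04 for mt-Nd2, and within double-precision libraries -1.75 and -1.99, none of which passed the test with the fewer libraries (limma adjusted p = 0.46, 0.52, 0.16 and 0.15).

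The values listed for the 2 tRNAs shown above also fell. Whether their reads came from the tRNAs or from longer precursors was not tested. mt-Ti measured 4.33, 82.2, 40.4, 10.3 and 7.73 FPKM after LPS and 52.2, 47.2, 93.1, 101 and 147 FPKM after saline, a log2 fold change of -2.19 (SE 0.59, limma adjusted p = 0.019). Only LPS replicate 2 lay inside the saline range. mt-Ts1 measured 4278, 10713, 9776, 2776 and 2660 FPKM after LPS and 12754, 11849, 14202, 18086 and 17626 FPKM after saline, with no overlap (log2 fold change -1.54, SE 0.49, limma adjusted p = 0.045). mt-Ts1 lies on the minus strand, opposite the end of mt-Co1, and the sources used here do not state whether reads were assigned by strand. Reads of either strand therefore cannot be told apart over its whole length, and the same holds for mt-Nd6 and mt-Tq on the minus strand. Within single-precision libraries mt-Ti changed by -1.56 and mt-Ts1 by -0.93 on the log2 scale, and within double-precision libraries by -2.94 and -2.10, again short of the threshold.

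Background calls in males at 24 h were 1.82% of all 19426 genes tested as lower and 7.08% as higher, so the 4 lower genes are 4 of 123 members against 1.82% and the 1 higher gene is 1 of 123 against 7.08%. At an unadjusted p under 0.05 by limma stood 62 of 123 members, against 29.8% of all genes tested: all 13 mitochondrial mRNAs, 1 of 2 rRNAs, 14 of 22 tRNAs, 33 of 79 nuclear subunits and Atp5sl. The remaining 11 mitochondrial mRNAs had log2 fold changes between -1.42 (mt-Co3, adjusted p = 0.065) and -0.98 (mt-Nd5, adjusted p = 0.12, limma). Those of complex I were mt-Nd3 (-1.40, 0.085), mt-Nd6 (-1.31, 0.074), mt-Nd4 (-1.20, 0.071) and mt-Nd4l (-1.03, 0.075), and the others were mt-Co2 (-1.24, 0.081) of complex IV and mt-Atp8 (-1.38, 0.092) and mt-Atp6 (-1.26, 0.062) of complex V, each with its limma adjusted p. None of the 11 passed the test. mt-Cytb (-1.03, adjusted p = 0.071) and mt-Co1 (-1.34, adjusted p = 0.065) had no overlap between groups. Of the members with every LPS library on one side of every saline library there were 4 lower members (mt-Cytb, mt-Co1, mt-Tr and mt-Ts1; 2.12% of all genes) and 10 higher (9.55% of all genes).

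In the authors' deposited table, 24 members were lower and 1 was higher in males at 24 h (authors' adjusted p under 0.05), beside 10.2% lower and 8.96% higher among all genes with a p. The lower ones were 12 of 13 mitochondrial mRNAs, 1 of 2 rRNAs, 8 of 12 tRNAs with a p and 3 of 79 nuclear subunits. The authors' deposited table gave mt-Nd1 -1.12 (adjusted p = 0.017) and mt-Nd2 -1.10 (adjusted p = 0.030) on the log2 scale.

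The male calls rested on few libraries. mt-Nd1, mt-Nd2 and mt-Ts1 each lost the threshold when any 1 male 24 h library was left out other than LPS replicate 2 or 3, with adjusted p-values up to 0.13, 0.15 and 0.14 (limma, all without LPS replicate 5). mt-Ti lost it without saline replicate 5 or LPS replicates 1, 4 or 5, with an adjusted p of up to 0.074. Without LPS replicate 2 there were 17 lower members and without LPS replicate 3 there were 9. LPS replicates 2 and 3 are the male LPS libraries with 47.8 and 54.4 FPKM of Lcn2. The share of all genes called without them is not given here, so these counts are not read as a result about the members. LPS replicates 4 and 5, the libraries with a low mt-Rnr2 to mt-Rnr1 ratio, had the lowest mitochondrial sums, and LPS replicate 1 had the next lowest. Replicates 4 and 5 also had the lowest FPKM sums over all genes among male libraries. These were 456417 and 463146, against 486254 to 565592 in the other male libraries. Microglial markers in males at 24 h summed to 118 to 256 FPKM after LPS and 64.2 to 195 after saline, oligodendrocyte markers to 582 to 1395 after LPS and 332 to 1007 after saline, and neuronal markers to 117 to 280 after LPS and 94.0 to 216 after saline. Endothelial markers summed to 71.0 to 168 FPKM after LPS and 36.7 to 96.2 after saline, mural markers to 25.6 to 50.2 after LPS and 22.5 to 33.9 after saline, and erythroid markers to 139 to 530 after LPS and 131 to 919 after saline. Each of these 6 sums overlapped between the groups. The other 3 did not overlap: ependymal markers summed to 44.9 to 72.5 FPKM after LPS and 15.7 to 29.1 after saline, fibroblast markers to 11.2 to 24.6 after LPS and 6.83 to 10.4 after saline, and leukocyte markers to 6.97 to 19.5 after LPS and 0.37 to 2.52 after saline. The ependymal list was led by Rarres2, with a mean of 34.6 FPKM over all libraries, against 0.873, 1.15 and 1.43 for Foxj1, Ccdc153 and Tmem212. Ccdc153 and Tmem212 were each listed at 0 in 12 libraries, so the ependymal sum reflects mainly Rarres2. Of the leukocyte markers in the table, S100a8 was listed at 0 in 18 and S100a9 in 20 of the 35 libraries. The part of these cells and libraries in the fall was not tested.

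**Figure D3:**
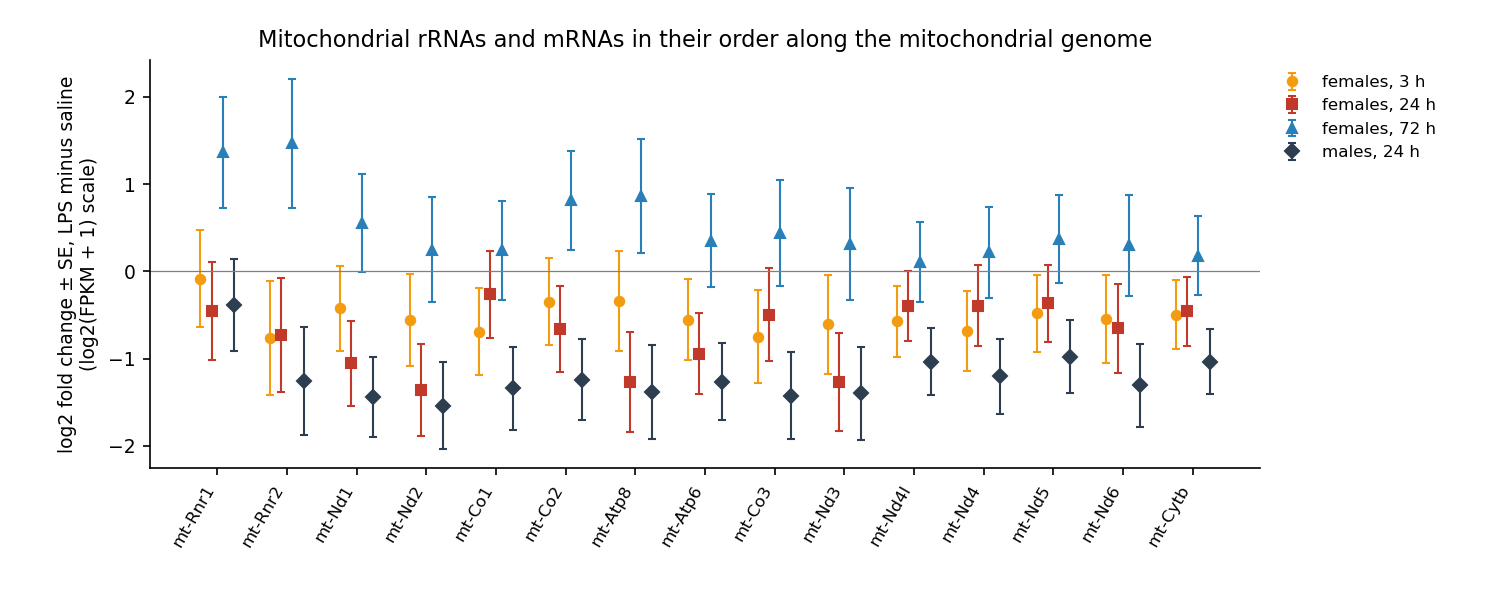
Log2 fold change (± SE) of LPS against saline for the 2 rRNAs and 13 mRNAs of the mitochondrial genome in their order along it, in 4 comparisons. In males at 24 h every one lay below 0, from -1.54 for mt-Nd2 to -0.39 for mt-Rnr1. At 72 h every one lay above 0 in the limma fit of all libraries. Without saline replicate 3 or 4, 7 of the 13 mRNAs lay below 0 at 72 h. Quantile normalization put mt-Co1 and mt-Cytb there at -0.02 and -0.11. The authors' deposited table put mt-Nd2, mt-Nd3 and mt-Nd6 below 0 at 72 h.

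The mitochondrial rRNAs of the males are given apart from the mRNAs. mt-Rnr1, the small rRNA, measured 228, 523, 771, 529 and 464 FPKM after LPS and 348, 395, 588, 1184 and 909 FPKM after saline, with overlapping groups (log2 fold change -0.39, limma adjusted p = 0.64). mt-Rnr2 measured 2202, 5674, 6045, 1586 and 1270 FPKM after LPS and 4386, 4293, 6623, 10336 and 9166 FPKM after saline (-1.26, adjusted p = 0.17, limma). Neither passed the test. mt-Rnr2 of LPS replicates 4 and 5 lay below every saline library, whereas mt-Rnr1 of the same 2 libraries lay within the saline range.

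Ndufa4 was the nuclear gene that rose in males at 24 h. It is sorted here to complex I by its symbol and is also known as a subunit of complex IV. It measured 264, 186, 215, 134 and 228 FPKM after LPS and 128, 69.8, 105, 94.0 and 70.5 FPKM after saline, with no overlap. Its log2 fold change was 1.13 (SE 0.32, limma adjusted p = 0.024), with 1.17 within single-precision and 1.19 within double-precision libraries. It lost the threshold without saline replicate 2 or 5 or LPS replicate 1 or 5, with an adjusted p of up to 0.073 (limma), and in the authors' deposited table it was 0.48 with an adjusted p of 0.15. In females at 24 h it measured 121, 143, 96.7 and 420 FPKM after LPS and 145, 137, 99.1, 145 and 227 FPKM after saline, with 2 LPS libraries inside the saline range, replicate 3 below it and replicate 4 above it. The change in females minus that in males was -0.96 (95% interval -1.87 to -0.06; limma adjusted p = 0.94 over all genes).

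**Figure D4:**
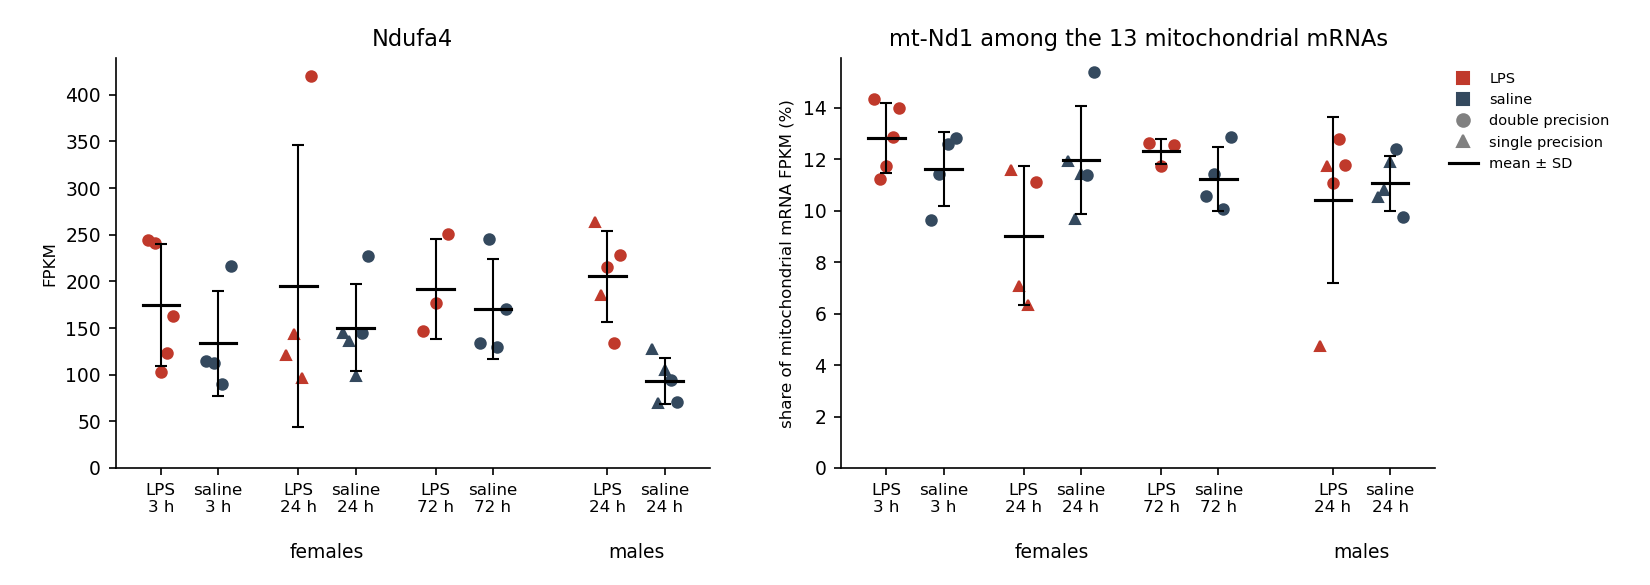
FPKM of Ndufa4 (one panel) and the percent of mitochondrial mRNA FPKM taken by mt-Nd1 (the other panel) in each library, with LPS left of saline; circles are double and triangles single precision. Male LPS libraries had 134 to 264 FPKM of Ndufa4 and male saline libraries 69.8 to 128, and 3 LPS libraries at 24 h had mt-Nd1 shares of 4.75% to 7.08%.

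Other nuclear subunits of males at 24 h lay higher after LPS without passing the test. The higher members without overlap were 10 of 123, beside 9.55% of all genes tested, so their number is not read as a result about the members. They were Ndufa2, Ndufa4, Ndufa11, Ndufb10, Ndufb11, Ndufs3 and Ndufs7 of complex I, Uqcrq of complex III, and Atp5d and Atp5j2 of complex V. Ndufb11, an accessory membrane subunit, measured 82.9, 71.6, 77.7, 79.2 and 88.3 FPKM after LPS and 36.8, 46.5, 66.1, 46.7 and 38.3 FPKM after saline (log2 fold change 0.78, SE 0.27, limma adjusted p = 0.056). Ndufs3, a core subunit of the hydrophilic arm, measured 55.2, 48.9, 52.4, 65.3 and 63.8 FPKM after LPS and 40.0, 46.4, 41.4, 33.6 and 36.0 FPKM after saline (0.52, SE 0.19, adjusted p = 0.076, limma). Both sets of libraries were separate, yet neither gene passed. Sdha, the flavoprotein of complex II, measured 123, 97.0, 111, 130 and 132 FPKM after LPS and 125, 113, 131, 92.8 and 108 FPKM after saline, with full overlap (0.06, SE 0.15, adjusted p = 0.82, limma).

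Some nuclear subunits lay lower after LPS in the same males. Ndufb6 of complex I had a log2 fold change of -0.67 (adjusted p = 0.13), Uqcrb of complex III -0.63 (0.16), Cox7b2 of complex IV -0.71 (0.11) and Atp5j, the coupling factor 6 subunit of complex V, -0.61 (0.16, all limma adjusted p). None passed the test. At the other end stood Uqcrq (0.77, adjusted p = 0.079), Cox4i2, an alternative form of subunit 4 (0.74, 0.11), and Atp5o, the oligomycin sensitivity subunit (0.75, 0.10, limma). Nuclear genes thus ranged from -0.71 to 1.13, and 62 of 79 lay above 0 beside a median of 0.18 for all genes. The share of all genes above 0 is not given here, so this count is not read as a result about the subunits. FPKM is scaled to all mapped fragments, the mitochondrial ones among them. Mitochondrial genes took 4.86% to 16.3% of all FPKM in male LPS libraries and 16.8% to 23.4% in male saline libraries. Mitochondrial and nuclear values are therefore not independent. When all libraries were shifted to a common median of nuclear genes, the nuclear subunit median was 0.22 and Ndufa4 stood at 0.96 (adjusted p = 0.074, limma).

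The base composition of the transcripts went with the size of these changes. Over the 79 nuclear subunits, the log2 fold change in males at 24 h had a Spearman rho of 0.45 with the G and C content of the transcript, and over all 19372 genes with a value 0.62. These are descriptions across genes measured in the same libraries. The 39 subunits of higher G and C content had a median of 0.52, with 36 above 0, and the 40 of lower content a median of 0.09, with 26 above 0. The share of all genes above 0 is not given here, so these counts are not read as a result about the subunits. With the trend on G and C content removed from each library, these medians were 0.08 and 0.05, the median of all 79 was 0.07 against 0.40 as deposited, and Ndufa4 stood at 1.17 (limma adjusted p = 0.034). The rho was 0.33 at 3 h, 0.28 in females at 24 h and -0.28 at 72 h, beside 0.40, 0.32 and -0.33 for all genes. In each library the median FPKM of the 39 subunits was divided by that of the 40. In male LPS replicates 4 and 5 this ratio was 1.15 and 1.08. It was 0.89 to 1.02 in male LPS replicates 1 to 3 and 0.68 to 0.90 in male saline libraries. In female LPS 3 h replicates 4 and 5 it was 1.17 and 1.13, against 0.60 to 1.08 in the other 3 h libraries. The part of these libraries in the trend was not tested.

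Cox8a and Cox7b, whose coding sequences are given above, are examples from complex IV, and Cox8a was chosen after its values were seen. The rho and the correction use the whole transcript, with 58.5% G and C for Cox8a and 42.0% for Cox7b. Cox8a measured 334, 345, 329, 320.5 and 376 FPKM in males after LPS and 138, 188, 337, 220 and 195 FPKM after saline, with saline replicate 3 inside the LPS range (log2 fold change 0.72, SE 0.29, limma adjusted p = 0.105; 0.19 with the trend removed). Cox7b measured 104, 146, 112, 58.5 and 90.2 FPKM after LPS and 149, 161, 185, 122 and 163 FPKM after saline, with LPS replicate 2 above the lowest saline library (-0.66, SE 0.30, limma adjusted p = 0.14; -0.49 with the trend removed). The mitochondrial mRNAs, at 31.9% to 41.1% G and C, lie below the median of 51.3% of the nuclear subunits, and their values were left as they were by the correction.

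**Figure D5:**
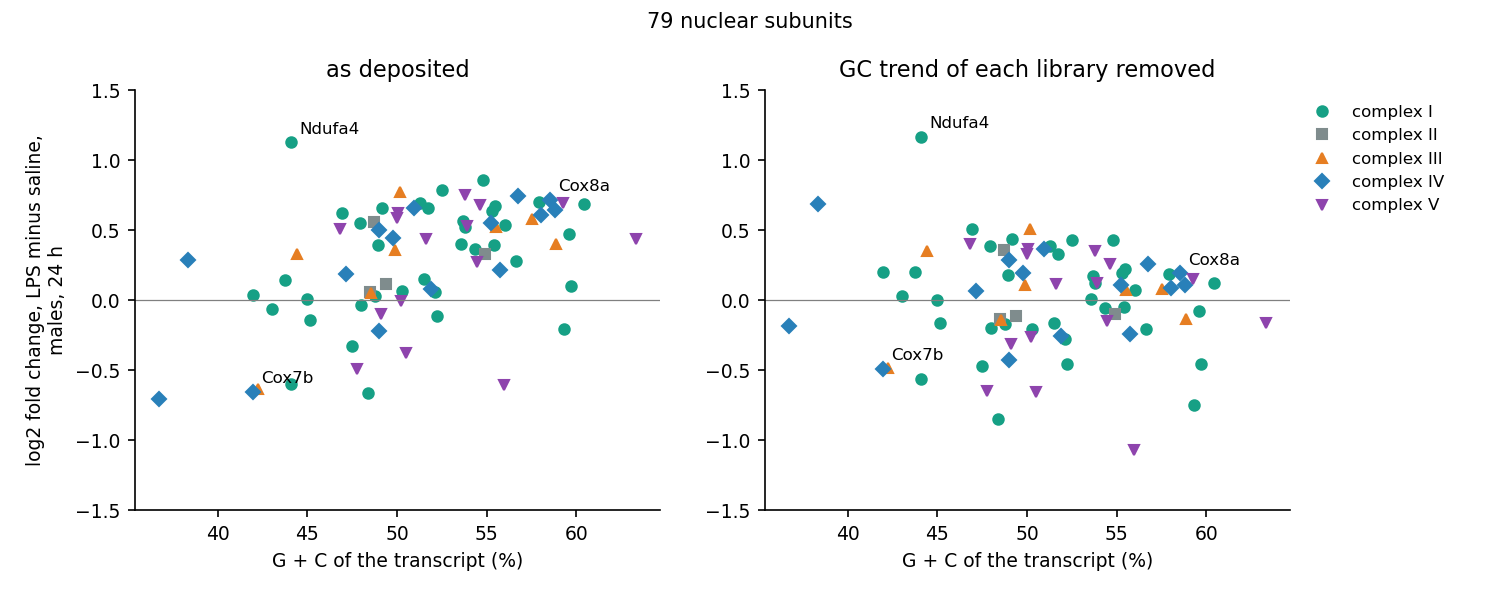
Log2 fold change of LPS against saline in males at 24 h for the 79 nuclear subunits, against the G and C content of the transcript in percent, as deposited and with the trend removed. Spearman rho was 0.45 as deposited, with Cox8a at 0.72, Cox7b at -0.66 and Ndufa4 at 1.13.

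In females at 24 h no member passed the test (limma; backgrounds of 2.54% higher and 0.798% lower), 11 of 123 had an unadjusted p under 0.05 against 14.0% of all genes tested, and the authors' deposited table called 0 (backgrounds there of 2.86% and 1.41%). No member had all LPS libraries above all saline libraries or below them (3.32% and 1.75% of all genes). mt-Nd1 measured 4259, 1510, 2609 and 7390 FPKM after LPS and 12374, 5568, 6761, 6756 and 5062 FPKM after saline, with LPS replicates 1 to 3 below the saline range and replicate 4 inside it (log2 fold change -1.05, limma adjusted p = 0.32). mt-Nd2 measured 2121, 605, 1061 and 3271 FPKM after LPS and 6451, 2888, 4115, 4672 and 2037 FPKM after saline (-1.36, adjusted p = 0.19, limma), with LPS replicates 1 and 4 inside the saline range. The lowest adjusted p of a member was that of mt-Tq, the glutamine tRNA, at 0.088, with 110, 72.2, 115 and 379 FPKM after LPS and 498, 355, 389, 229 and 351 FPKM after saline (-1.37, SE 0.44, limma). LPS replicate 4 alone lay inside the saline range.

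The female result at 24 h differed between the number formats, but double precision held 1 LPS library, so format cannot be told apart from that library. With number format as a term in the fit, 0 of the 13 mitochondrial mRNAs turned sign in females. The median of the mitochondrial mRNAs was -1.24 within single precision (3 LPS and 3 saline libraries) and 0.60 within double precision (1 LPS and 2 saline libraries), the opposite sign. In males it was -0.67 within single precision (2 LPS and 3 saline libraries) and -1.76 within double precision (3 LPS and 2 saline libraries). For nuclear subunits the female medians were 0.21 and 0.02 and the male medians 0.28 and 0.49, single before double precision. mt-Co1, by contrast with mt-Nd2, stood at -0.26 in females (adjusted p = 0.88, limma).

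The 13 mitochondrial mRNAs did not keep the same proportions in all libraries. mt-Nd1 made up 7.08% and 6.34% of their FPKM in female LPS 24 h replicates 2 and 3 and 4.75% in male LPS 24 h replicate 1, against 9.64% to 15.4% (median 11.7%) in the other 32 libraries. In these 3 libraries mt-Nd1, mt-Nd2, mt-Nd3, mt-Atp6 and mt-Atp8 together made up 16.9%, 14.3% and 12.9%, against 22.5% to 37.0% elsewhere. mt-Co1 made up 18.7% to 23.3% there, against 10.3% to 17.8% elsewhere, and mt-Cytb 15.6% to 20.4%, against 10.8% to 16.5%. All 3 are LPS libraries at 24 h and all 3 are in single precision, and no test was made of libraries picked by this share.

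At 3 h no member passed the test in females (limma; backgrounds of 1.94% higher and 0.443% lower), 3 of 123 had an unadjusted p under 0.05 against 12% of all genes tested, and the authors' deposited table called 0 (backgrounds there of 2.61% and 0.821%). No member had all LPS libraries above all saline libraries or below them (2.98% and 1.7% of all genes). The mitochondrial mRNAs took 14.0%, 15.9%, 17.4%, 5.66% and 6.04% of all FPKM after LPS and 17.5%, 17.3%, 14.8% and 11.1% after saline. LPS replicates 4 and 5, which also had the low mt-Rnr2 to mt-Rnr1 ratio, lay below all others, and replicates 1 to 3 lay between the lowest and highest saline library. FPKM over all genes summed to 458665 and 464128 in LPS replicates 4 and 5, against 515686 to 544963 in the other 3 h libraries. The same replicates 4 and 5 had oligodendrocyte marker sums of 1273 and 1558 FPKM, against 576 to 929 in the other 3 h libraries, and endothelial sums of 51.8 and 56.3 FPKM, against 80.4 to 175 in the others. The part of these cells was not tested. Single mRNAs ran from -0.75 (mt-Co3) to -0.34 (mt-Atp8) on the log2 scale. The lowest adjusted p was 0.21, for Cox7b2, a minor form of a complex IV subunit (-0.86, limma).

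At 72 h no member passed the test (limma; backgrounds of 0.0772% higher and 0.0% lower), 4 of 123 had an unadjusted p under 0.05 against 5.38% of all genes tested, and the authors' deposited table called 0 (backgrounds there of 0.723% and 0.027%). The mitochondrial mRNAs took 9.48%, 13.4% and 10.8% of FPKM after LPS and 13.4%, 17.0%, 4.88% and 4.49% after saline. The low saline replicates 3 and 4 are those with the highest erythroid sums, and the LPS values lie between the lowest and the highest saline library. They also had the highest oligodendrocyte sums of all 35 libraries, at 1648 and 2167 FPKM. Their ependymal sums, from a list led by Rarres2, were 70.7 and 64.2 FPKM, against 25.4 and 25.7 in saline replicates 1 and 2. Their microglial sums were 381 and 431.7 FPKM, against 195 and 272. Endothelial sums were 168 and 197 FPKM in replicates 3 and 4, against 85.8 and 101, mural sums 56.6 and 60.9, against 34.5 and 39.9, and fibroblast sums 16.3 and 19.1, against 7.81 and 6.97. In the LPS libraries microglial sums were 444, 432.5 and 669 FPKM, all above every saline library. Leukocyte sums were 30.5, 5.04 and 21.3 after LPS, against 0.73 to 1.67 after saline. Erythroid sums were 124, 415 and 648 after LPS, against 757 to 1787 after saline. Endothelial, mural and fibroblast sums overlapped between LPS and saline. The part of these cells in the 72 h values was not tested. mt-Rnr1 measured 951, 732 and 915 FPKM after LPS and 991, 1125, 117 and 93.8 FPKM after saline (log2 fold change 1.36, limma adjusted p = 0.89), which shows the same split. Leaving out 1 library moved the median of the mitochondrial mRNAs between -0.05 and 0.72. Ndufb7 and Ndufv2 of complex I and Atp5sl had every LPS library below every saline library (3.44% of all genes), and no member had the reverse (2.34%). Ndufb7 measured 33.7, 25.7 and 21.6 FPKM after LPS and 54.5, 43.7, 103 and 44.3 FPKM after saline (-1.09, adjusted p = 0.92, limma).

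The nuclear subunits at the ends of each complex were small steps from 0 in the females, and none passed the test (limma). At 3 h the highest and lowest log2 fold changes were 0.38 (Ndufa4) and -0.41 (Ndufa1) in complex I, 0.34 (Sdhc, a membrane anchor) and -0.03 (Sdhd, the other anchor) in complex II, 0.40 (Uqcrc1, a core subunit) and -0.37 (Uqcrb) in complex III, 0.58 (Cox7a1) and -0.86 (Cox7b2) in complex IV, and 0.31 (Atp5o) and -0.46 (Atp5j) in complex V. At 24 h they were 0.39 (Ndufa2) and -0.53 (Ndufc1), 0.22 (Sdhb) and -0.08 (Sdha), 0.54 (Uqcr10) and -0.34 (Uqcrfs1, the Rieske iron-sulfur protein), 0.58 (Cox4i2) and -0.57 (Cox7a1), and 0.26 (Atp5e) and -0.33 (Atp5f1) in the same order of complexes. At 72 h they were 0.40 (Ndufb6) and -1.09 (Ndufb7), -0.17 (Sdhc) and -0.31 (Sdhb), 0.04 (Uqcrb) and -0.62 (Uqcrh), 0.37 (Cox7b2) and -0.80 (Cox7a1), and 0.16 (Atp5e) and -0.37 (Atp5b).

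The change of the LPS effect with time and with sex was tested directly. No member passed for the effect at 24 h minus that at 3 h (backgrounds of 0.293% higher and 0.417% lower), the effect at 72 h minus that at 24 h (0.0206% and 0.324%), or the effect in females minus that in males (0.0% and 0.0%) by limma. At an unadjusted p under 0.05 stood 0, 9 and 4 of 123 members, against 8.57%, 10.6% and 3.97% of all genes tested. The authors' deposited table was not used for these differences. Median differences of the mitochondrial mRNAs were -0.11, 0.95 and 0.58 on the log2 scale and of the nuclear subunits 0.02, -0.28 and -0.27. For mt-Nd1 the female minus male difference was 0.38 (95% interval -0.94 to 1.70) and for mt-Ts1 1.07 (-0.34 to 2.47), and both intervals hold 0 as well as differences above 1 log2 unit.

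Saline libraries were compared with each other to see how far the groups differ without LPS. In females at 24 h against 3 h the mitochondrial mRNA median was -0.39 and the nuclear median 0.14, and at 72 h against 24 h they were -0.51 and 0.22. Female against male saline libraries at 24 h gave -0.48 and 0.20. At 24 h against 3 h (backgrounds of 0.036% higher and 0.762% lower) and in females against males (0.0206% and 0.0309%) no member passed by limma, 4 and 2 of 123 had an unadjusted p under 0.05 (10.6% and 2.39% of all genes), and the authors' deposited table called 0 between the sexes (backgrounds there of 0.0261% higher and 0.0471% lower). The 1 member that passed was Ndufa4l2, a minor relative of Ndufa4 known to be induced by hypoxia, at 72 h against 24 h (backgrounds of 2.92% higher and 0.118% lower), where 3 of 123 members had an unadjusted p under 0.05 against 15.6% of all genes. It measured 1.30, 0.916, 3.49 and 3.86 FPKM at 72 h and 0.185, 0.199, 0.377, 0.469 and 0.398 FPKM at 24 h, and it was the 1 member whose 72 h libraries all lay above those at 24 h (5.27% of all genes), while 0 members lay below (0.87%) (log2 fold change 1.24, SE 0.25, limma adjusted p = 0.0054). Without 72 h replicate 4, which has a high erythroid sum, the adjusted p was 0.069, and within double-precision libraries it was 0.19 (limma). All 24 h values of Ndufa4l2 lay below an FPKM of 1. Mural sums were 34.5, 39.9, 56.6 and 60.9 FPKM in the 72 h libraries and 18.0 to 35.2 in the 24 h libraries. The part of these cells was not tested. Mitochondrial mRNAs of saline groups thus differed by medians of up to 0.51 with no LPS, and the LPS comparisons at 3 h and in females at 24 h gave medians of 0.55 and 0.65 below saline.

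Minor isoforms of nuclear subunits stayed minor in these libraries. Cox4i2, the alternative form of Cox4i1, made up 0.834% to 3.05% of the pair (median 1.64%), Cox6b2 1.26% to 7.12% of its pair with Cox6b1, Cox7a1 up to 6.06% of its pair with Cox7a2 with 4 libraries in which it was listed at 0, and Cox7b2 0.489% to 5.81% of its pair with Cox7b. Among the 3 genes for the same ATP synthase c subunit, Atp5g3 made up 60.6% to 91.7%, Atp5g1 5.00% to 26.6% and Atp5g2 3.33% to 16.1% of their FPKM. Cox6a2, Cox8b and Cox8c, which belong to striated muscle and testis, were not in the table and were not analysed here. Near-identical processed pseudogenes and nuclear copies of mitochondrial DNA share sequence with many members, and how reads with several matches were handled is not given in the sources used here.

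Genes that work with the respiratory chain, and subunits that the symbol rule missed, were taken from lists of their own. Their choice was made with earlier results known. In males at 24 h, 7 of 81 mitochondrial ribosome genes rose (background 7.08%), 2 of 44 assembly factors fell (1.82%), and 1 of 29 genes of mitochondrial DNA expression, 1 of 14 of the citrate cycle and 1 of 12 of redox and uncoupling rose. Idh2, the mitochondrial NADP-dependent isocitrate dehydrogenase, had log2 fold changes of 1.28 in males (adjusted p = 0.0021) and 0.96 in females at 24 h (adjusted p = 0.046, limma). Ucp2, an uncoupling protein family member, had 1.53 and 1.15 (limma adjusted p = 0.0023 and 0.047), and Mrpl41 of the large mitochondrial ribosomal subunit 2.12 and 3.22 (limma adjusted p = 0.00039 and 1.26e-06). The female calls of Idh2 and Ucp2 were lost with 1 library left out, at adjusted p-values of up to 0.24 (without LPS replicate 2) and 0.19 (without saline replicate 1). At 3 h Mrpl41 rose by 1.48 (limma adjusted p = 0.032, and 0.12 without saline replicate 3). Cox20 and Coa5, assembly factors of complex IV, fell by 1.04 and 0.56 on the log2 scale in males (limma adjusted p = 0.042 and 0.032, at most 0.12 without LPS replicate 5 and 0.084 without saline replicate 1). Hsd17b10, a part of mitochondrial RNase P, which cuts tRNAs out of the precursors, rose by 1.01 in males (limma adjusted p = 0.023, at most 0.071 without saline replicate 5; 0.77 within single and 1.35 within double precision). Mrpl12, Mrps18b and Mrpl51 of the mitochondrial ribosome rose by 0.88, 0.86 and 0.75 (limma adjusted p = 0.036, 0.016 and 0.0097), and the first of them reached 0.10 without LPS replicate 5 and the next 0.062 without LPS replicate 4. Ttc19, an assembly factor of complex III, rose by 0.96 in females at 24 h (limma adjusted p = 0.038, and 0.20 without LPS replicate 3). Within single and within double precision, the male values were 1.04 and 1.60 for Idh2, 1.07 and 1.69 for Ucp2 and 2.80 and 1.81 for Mrpl41, and the female values were 1.24 and 0.19, 1.40 and 0.97, and 3.85 and 1.42. Of the regulators of mitochondrial number, 0 of 12 passed in any LPS comparison by limma, and 1 had an unadjusted p under 0.05 in males at 24 h, where 29.8% of all genes did. Their values in males were -0.12 for Ppargc1a, a coactivator of mitochondrial genes, and 0.52 for the transcription factor Nrf1 (limma adjusted p = 0.74 and 0.13). Of the machinery that transcribes mitochondrial DNA, Tfam was at -0.42, Tfb2m at -0.33 and the polymerase Polrmt at 0.55 (limma adjusted p = 0.16, 0.33 and 0.16), and Lrpprc, which binds mitochondrial mRNAs, was at 0.15 (0.57). Cytochrome c (Cycs), the electron carrier between complexes III and IV, stood at -0.66 in males and -0.86 in females at 24 h (limma adjusted p = 0.085 and 0.073). Cytochrome c1 (Cyc1), a subunit of complex III, stood at 0.51 and -0.15 (limma adjusted p = 0.28 and 0.91). The carrier protein Ndufab1, also a subunit of complex I, stood at -0.33 and -0.29 (limma adjusted p = 0.17 and 0.49). None of these 9 passed the test at any time.

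The promoter of Cox6a1, a nuclear complex IV subunit, is shown because it carries both motifs searched for among the subunits, the palindromic consensus of NRF1, which is the first run of capitals, and the motif CCGGAAG of ETS factors, or CTTCCGG on the other strand. It covers the 250 bases before the start (RefSeq, GRCm38.p6, chr5:115348959-115349208, minus strand) with the motif letters in capitals.
Cox6a1: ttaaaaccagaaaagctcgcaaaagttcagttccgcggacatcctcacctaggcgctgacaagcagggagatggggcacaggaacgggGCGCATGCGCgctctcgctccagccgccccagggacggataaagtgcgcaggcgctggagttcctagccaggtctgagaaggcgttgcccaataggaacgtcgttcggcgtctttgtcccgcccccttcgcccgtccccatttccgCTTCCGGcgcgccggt

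Of 79 nuclear subunits, 66 had a promoter in the table. The NRF1 motif lay in 4 of these (6.06%: Ndufa11, Cox6a1, Atp5g2 and Atp5k), against 237 of 27025 genes (0.877%), and the ETS motif in 12 (18.2%), against 2115 genes (7.83%). Both strands were searched. A match says only that these letters are present, and Cox6a1 measured 230, 221, 225, 210 and 244 FPKM in males after LPS and 102, 147, 232, 154 and 115 FPKM after saline (log2 fold change 0.64, limma adjusted p = 0.12), with saline replicate 3 inside the LPS range.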

How the data were processed

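Gene-level FPKM of 35 libraries was deposited by the authors in a single table, with their own log2 fold changes and adjusted p-values. Per the labels' protocols, RNA of sorted astrocytes was amplified with the SMART-seq HT kit and made into libraries with Nextera XT; the submitters' processing notes name HISAT2, StringTie, DESeq2 and mm10, without versions. The strand and multi-mapping settings are not given in the sources used here. The table held 19584 entries with 11 repeated IDs, leaving 19573 genes, of which 19556 IDs matched GENCODE M21.

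FPKM + 1 was taken to log2 and fitted with limma 3.58.1 (R 4.3.3): 1 coefficient per group, all 8 groups, trend on the mean, two-sided, Benjamini-Hochberg adjusted over the 19426 genes that reached an FPKM of 1 in 3 or more libraries. Fold changes are on the log2(FPKM + 1) scale, which understates those of low genes. No count test was run, since low values were not on whole-read steps and the depth stays unknown. The genes named are the mitochondrial mRNAs and rRNAs, every member that passed the test, the highest level and largest rise and fall of each nuclear complex, paralogue families and, from companion lists, called genes (at most 4 per list and comparison) and 9 fixed regulators and carriers; members without overlap, Ndufs3, mt-Tq, Cox8a and the promoter of Cox6a1 were chosen after their values were seen. The members and gene lists were chosen with earlier results of these data known. Python 3.11.15 was used for summaries. The fit was tested on simulated data. Other pseudocounts, filters, scalings, array weights, number format, a replicate block, left-out libraries and a G and C correction were tried.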

Additional observations from a re-analysis of the deposited data

Results flagged for a closer look

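Of 154 combinations of group and measure, 7 held a library far from the rest of its group. Chance flags about 1 in 20 such groups, so this number is no more than chance gives. The values below are descriptions only. The summed FPKM of nuclear subunits was 9788 in male saline 24 h replicate 3, and 7009 in the next library of that group. The mitochondrial mRNA mt-Nd6, the complex I subunit encoded on the opposite strand to the others, measured 2089 FPKM in female saline 3 h replicate 3, with 1357 in the next library, and 2192 FPKM in male saline 24 h replicate 4, with 1660 in the next. mt-Nd1 measured 12374 FPKM in female saline 24 h replicate 1, with 6761 in the next library. Ndufa4 measured 420 FPKM in female LPS 24 h replicate 4, with 143 in the next library. Ndufa4l2 was low in female LPS 3 h replicate 3 at 0.385 FPKM, with 0.737 in the next library, and high in female saline 3 h replicate 3 at 1.69 FPKM, with 0.918 in the next.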

How the results depend on the processing

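No result that passed the test turned sign under an alternative run, and the cause of each move below was not tested. The share of all genes is not given beside the member counts below, so they are not read as results about the members. Counts over all genes moved too. For the effect at 24 h minus 3 h, array weights gave 215 higher and 260 lower genes, against 57 and 81 as reported. Beside 1 higher and 4 lower members in males at 24 h, a mean FPKM of at least 5 gave 2 and 8, a shift to the nuclear median and quantile normalization 0 higher each, the 2 groups alone 18 higher, array weights 29 and 19, single precision 0 and 0, double precision 0 and 1, and 24 lower came from the authors' deposited table. Added after seeing the data, removal of the G and C trend gave 2 lower, with a nuclear median of 0.073, and leaving out the 2 libraries with the fewest genes gave 13 higher. With 1 library left out the higher count ran from 0 to 5 and the lower count from 0 to 17. Beside 0 lower members in females at 24 h, array weights and single precision gave 6 each and left-out libraries 0 to 1, and double precision turned the mitochondrial median to 0.60. At 72 h, array weights gave 11 higher and 34 lower and a nuclear median of -0.62. For the effect at 24 h minus 3 h, the mitochondrial median was 1.09 in double precision. For 72 h minus 24 h, array weights gave 29 higher and 42 lower, a mitochondrial median of 1.97 and a nuclear one of -0.83, double precision a mitochondrial median of -0.24, and the G and C correction a nuclear median of -0.0043. For females minus males, the mitochondrial median was -0.63 in single and 2.34 in double precision. Between saline groups, array weights gave 1 higher and 2 lower at 24 h minus 3 h; at 72 h minus 24 h the higher count was 0 with a mean FPKM of at least 5, quantile normalization, the groups alone or double precision, and 0 to 1 with 1 library left out, while array weights gave 49 higher, 23 lower and a nuclear median of 0.57 and the G and C correction a nuclear median of -0.058. The nuclear median of female minus male saline libraries was 0.48 in double precision. Whether replicate numbers pair the samples is not known. Of 16 pairs across LPS and saline, 5 had a correlation of deviations over 0.1, with values from -0.40 to 0.37. Deviations within groups of 3 to 5 libraries cannot decide this. A replicate block gave 8 lower members in males at 24 h. Depth is unknown, so precision rests on 3 to 5 libraries a group.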
